A study of Mus musculus with 13 samples.

Results

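The BCL2 family sets whether the outer mitochondrial membrane of a thymocyte stays sealed or is opened in apoptosis. Transcripts of 10 listed members were followed in DN3 and DN4 thymocytes, the double negative (CD4-CD8-) stages on either side of β-selection. The members were the anti-apoptotic genes Bcl2, Bcl2l1 and Mcl1, the BH3-only genes Bcl2l11, Bbc3, Pmaip1, Bid and Bmf, and the effectors Bax and Bak1. They were taken by name from a list that was written with earlier results of these data known. All of them, 10 of 10, were found among the 47937 genes of the count table. Each of them passed the filter on low counts in each of the comparisons that follow.

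Thymocytes were freshly sorted from C57BL/6 mice aged 6 weeks. Wt mice were WT;Lck-Cre+ and KO-labelled mice were Opa1fl/fl;Lck-Cre+. The Wt mice were littermates, and both groups carried the Lck-Cre transgene, which expresses Cre recombinase from the T lineage Lck promoter, and the KO-labelled mice also had floxed alleles of Opa1, which encodes a protein of inner mitochondrial membrane fusion and cristae shape. The 13 libraries came from 7 mice. Mice KO45, KO49 and KO51 were KO-labelled and gave 3 DN3 and 3 DN4 libraries, Wt mice WT05, WT46 and WT48 gave 3 of DN3, and these with WT40 gave 4 of DN4. Each library is 1 mouse at 1 stage. No agent was given to the mice. Counting covered the whole Opa1 gene, exons outside the floxed sequence included, so it could not check the deletion. Opa1 stood at 88.6 to 93.8 CPM (counts scaled to library size by edgeR's TMM method) in KO-labelled DN3, at 91.1 to 112 CPM in Wt DN3, at 77.0 to 87.9 CPM in KO-labelled DN4 and at 85.1 to 93.8 CPM in Wt DN4, and the genotypes overlapped at both stages.

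Anti-apoptotic members hold the killers of the family in check. BCL2, BCL-XL (encoded by Bcl2l1) and MCL1 bind the effectors BAX and BAK and the BH3-only proteins BIM (Bcl2l11), PUMA (Bbc3), NOXA (Pmaip1), BID and BMF, which relay stress, cytokine withdrawal or DNA damage. Once freed or activated, BAX and BAK open the outer membrane and release cytochrome c, which switches on caspases. In the thymus, cytokine signals through the interleukin-7 receptor are known to sustain Bcl2 in early cells, whereas Bcl2l1 serves the survival of CD4+CD8+ double positive (DP) cells, and loss of Mcl1 is badly tolerated at several stages.

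Depth and sorting set limits on these values. Libraries held 5926848 to 14148661 counts. In the DN3 library of WT05, 41.49% of counts fell on 11 ribosomal RNA-like genes, against 0.442% to 1.75% in the other libraries, which left 16 to 778 counts on a member there. That library also stood apart in the sum of 5 proliferation markers, at 3596 CPM against 1206 and 1366 CPM in DN3 of WT46 and WT48. KO-labelled DN3 libraries held 1114 to 1733 CPM of them. Most markers of the sorted stage moved with the labels, since 5 of 8 DN3 markers were lower (with Erg, which passed the filter on low counts only through DN3) and 8 of 8 markers of later thymocytes were higher in DN4 than in DN3 of Wt mice by edgeR. Among KO-labelled libraries 6 of 8 DN3 markers, Erg included, were lower and 7 of 8 later markers were higher. There Rag1, at 0.50, and Rag2, at -0.05 on the log2 scale, did not pass. Other lists moved as well. Of the B-cell markers, Cd79a, Cd79b and Ighm passed the filter within DN3 too and were higher in DN4 of both genotypes, whereas Ms4a1 and Pax5 passed only through DN4, where they were high, so they are not counted. Summed over the 6 B-cell markers, DN3 libraries held 284 to 425 CPM and DN4 libraries 881 to 4910 CPM, with none of them at 0 throughout. Nkg7 was the NK and innate lymphoid marker that passed the filter within DN3, with log2 values of 1.02 (adjusted p = 0.0498, edgeR) in Wt and 0.33 (adjusted p = 0.338) among KO-labelled libraries. Klrd1, Klrb1c and Eomes of the same list passed only through DN4. Of 4 plasmacytoid dendritic markers, Siglech did not pass the filter. Ccr9 and Irf8 were higher in DN4 of both genotypes, and Bst2 was lower in KO-labelled mice. Of the gamma delta T markers, Sox13 and Trdc were higher and Tcrg-C1 lower in DN4 of Wt mice, Tcrg-C1 was lower in KO-labelled mice, and Zbtb16 passed the filter only through DN4. Of 3 stromal markers tested, Pdgfrb and Epcam were lower in DN4 in both genotypes, with log2 values from -2.02 to -1.86, and the summed stromal markers held 68.5 to 164 CPM in DN3 and 20.3 to 37.3 CPM in DN4. Of 2 myeloid markers tested, Lyz2 was lower in DN4, with log2 values of -2.81 for Wt and -3.36 for KO-labelled libraries. The summed myeloid markers held 22.2 to 31.4 CPM in DN3 and 11.4 to 17.7 CPM in DN4. In bulk samples fewer cells of a type and less RNA per cell cannot be told apart.

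Mcl1 was the most abundant family transcript. To compare genes, CPM was divided by the length of the union of a gene's exons in kilobases. In Wt DN3 cells, Mcl1 stood at 63.4 ± 6.28 CPM per kb (SD, n = 3), followed by Bax at 36.2 ± 7.13, Bak1 at 27.5 ± 2.35, Bid at 19.9 ± 1.54, Bcl2 at 12.8 ± 1.498, Bcl2l11 at 8.12 ± 2.87, Bmf at 7.89 ± 3.68, Bcl2l1 at 5.64 ± 0.737, Bbc3 at 2.30 ± 0.106 and Pmaip1 at 1.24 ± 0.544. Neighbours in this order overlapped in their SD for Bax and Bak1, and for Bcl2l11, Bmf and Bcl2l1. In Wt DN4 cells, Mcl1 reached 121 ± 26.0 CPM per kb (SD, n = 4), Bcl2 stood at 12.9 ± 2.40, Bcl2l11 at 12.1 ± 1.77, Bcl2l1 at 9.98 ± 3.92, Bmf at 8.70 ± 1.95, and Bbc3 at 6.02 ± 1.71. Mcl1 led in 13 of 13 libraries per kilobase of exon, and in 12 of 13 when the longest coding transcript gave the length, because Bax lay above it in the DN3 library of WT48. That other length also placed Bid, at 32.2 CPM per kb, above Bak1, at 27.8, in Wt DN3.

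**Figure D1:**
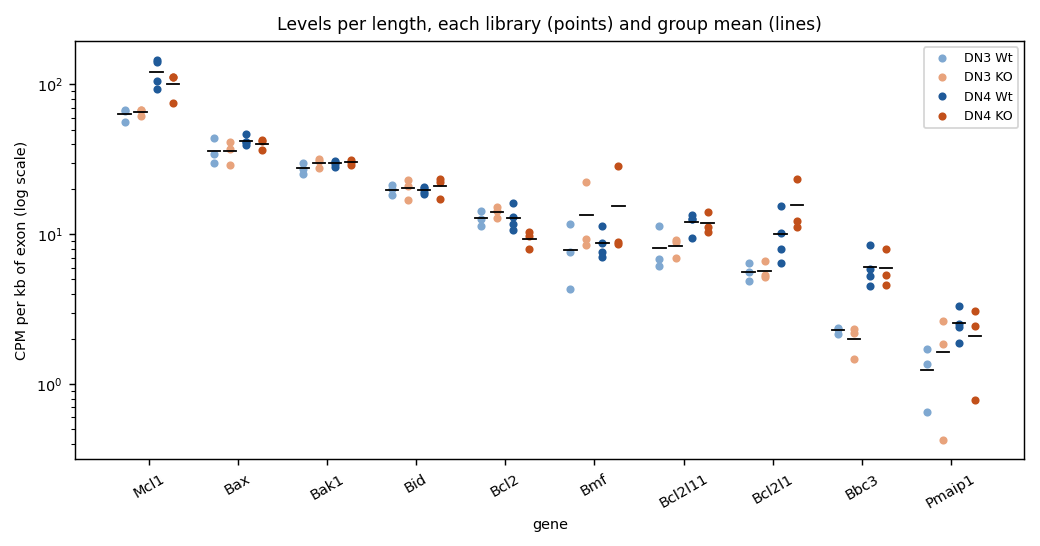
Levels of the 10 members per kilobase of exon (log axis, genes ordered by their mean). Points are libraries and lines group means, and Mcl1 lies highest while Bbc3 and Pmaip1 lie lowest, at 2.30 and 1.24 CPM per kb on average in Wt DN3.

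Promoter windows are shown for the 4 members called between the stages and for Bcl2l11 and Bax, whose DN4 levels lay above those of DN3 in 6 of 6 mice without a call. RefSeq windows on GRCm38.p6, from 250 bases before to 50 bases after an annotated start, were taken for 9 members (16 windows). Pmaip1 was left out of the search, so nothing is said of its windows. Where a member has several, the one of the most upstream start is printed. They are written 5′ to 3′ on the gene's strand, with motif matches in capitals.
Mcl1, chr3:95658471-95658770, plus strand: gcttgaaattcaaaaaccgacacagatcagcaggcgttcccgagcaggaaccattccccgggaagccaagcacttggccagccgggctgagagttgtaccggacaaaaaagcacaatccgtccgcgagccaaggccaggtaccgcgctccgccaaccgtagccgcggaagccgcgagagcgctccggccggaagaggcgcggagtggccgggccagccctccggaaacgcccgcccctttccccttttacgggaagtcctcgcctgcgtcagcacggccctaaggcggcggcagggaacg
Bbc3, chr7:16309333-16309632, plus strand: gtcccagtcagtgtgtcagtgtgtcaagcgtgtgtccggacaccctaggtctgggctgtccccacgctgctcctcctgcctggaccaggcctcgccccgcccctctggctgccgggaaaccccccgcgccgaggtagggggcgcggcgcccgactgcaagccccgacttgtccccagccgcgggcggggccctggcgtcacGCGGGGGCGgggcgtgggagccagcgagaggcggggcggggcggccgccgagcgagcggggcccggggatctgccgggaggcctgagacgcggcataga
Bcl2l11, chr2:128125788-128126087, plus strand: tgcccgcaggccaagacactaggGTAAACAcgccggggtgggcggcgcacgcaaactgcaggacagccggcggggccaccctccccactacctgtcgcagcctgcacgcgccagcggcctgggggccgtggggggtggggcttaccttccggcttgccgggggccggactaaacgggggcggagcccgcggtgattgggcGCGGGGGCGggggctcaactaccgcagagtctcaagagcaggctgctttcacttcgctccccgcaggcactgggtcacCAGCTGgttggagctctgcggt
Bcl2l1, chr2:152831679-152831978, minus strand: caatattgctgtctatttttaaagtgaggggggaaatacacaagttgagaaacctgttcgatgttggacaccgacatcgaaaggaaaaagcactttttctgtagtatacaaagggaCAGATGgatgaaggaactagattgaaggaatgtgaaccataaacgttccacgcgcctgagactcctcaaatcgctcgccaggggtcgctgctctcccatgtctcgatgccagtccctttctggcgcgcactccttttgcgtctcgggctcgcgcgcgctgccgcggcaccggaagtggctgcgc
Bcl2, chr1:106714241-106714540, minus strand: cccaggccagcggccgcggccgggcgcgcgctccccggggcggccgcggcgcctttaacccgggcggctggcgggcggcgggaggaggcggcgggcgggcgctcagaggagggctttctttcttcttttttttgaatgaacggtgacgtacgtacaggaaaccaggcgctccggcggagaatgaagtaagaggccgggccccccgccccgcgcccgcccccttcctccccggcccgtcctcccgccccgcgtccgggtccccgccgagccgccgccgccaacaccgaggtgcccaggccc
Bax, chr7:45466849-45467148, minus strand: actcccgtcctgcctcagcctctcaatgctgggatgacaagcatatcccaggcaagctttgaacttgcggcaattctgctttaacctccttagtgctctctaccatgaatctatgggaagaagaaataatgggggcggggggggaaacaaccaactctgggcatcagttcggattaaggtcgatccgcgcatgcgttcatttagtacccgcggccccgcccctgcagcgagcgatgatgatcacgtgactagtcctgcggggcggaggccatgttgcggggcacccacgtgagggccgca

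Searched on both strands were the forkhead motif GTAAACA, the EGR motif GCGNGGGCG, the STAT motif TTCNNNGAA and the E-box CAGNTG. They occur in 3.65%, 5.55%, 8.30% and 51.4% of all 32851 windows. Those printed for Mcl1, Bcl2 and Bax held none of the 4 motifs. The printed window of Bbc3 held the EGR motif at position -49 from the start, that of Bcl2l11 held the forkhead motif at -227, the EGR motif at -50 and an E-box at 29, and that of Bcl2l1 held an E-box at -134. Of the windows not printed, 1 of Bbc3 held the forkhead motif at -167, the EGR motif at -141 and E-boxes at -226 and -193, another of Bbc3 held an E-box at 13, and those of Bcl2l1, Bcl2l11, Bid and Bak1 held none, while each of the 3 windows of Bmf held E-boxes and no other motif. No E-box overlapped another kind of motif. A match is a run of letters and was not tested as a site.

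DN4 cells of Wt mice held more Mcl1 and more Bbc3 than DN3 cells. These were 2 of 10 members called by edgeR at an adjusted p under 0.05, both higher, and 22.9% of the 12691 genes tested were called in this comparison, 13.4% as higher and 9.43% as lower. The members' median log2 fold change was 0.37, and that over all genes tested was -0.03. DN4 cells of KO-labelled mice held more Bcl2l1, Mcl1 and Bbc3 and less Bcl2 than their DN3 cells. That made 4 of 10 members called, 3 higher and 1 lower, against 18.6% of 12580 genes, 11.2% as higher and 7.34% as lower, with a median of 0.26 over the members and -0.02 over all genes. Groups did not overlap in CPM for 4 members in Wt and for 5 in KO-labelled mice, where 35% and 38.7% of all genes tested did not overlap.

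**Figure D2:**
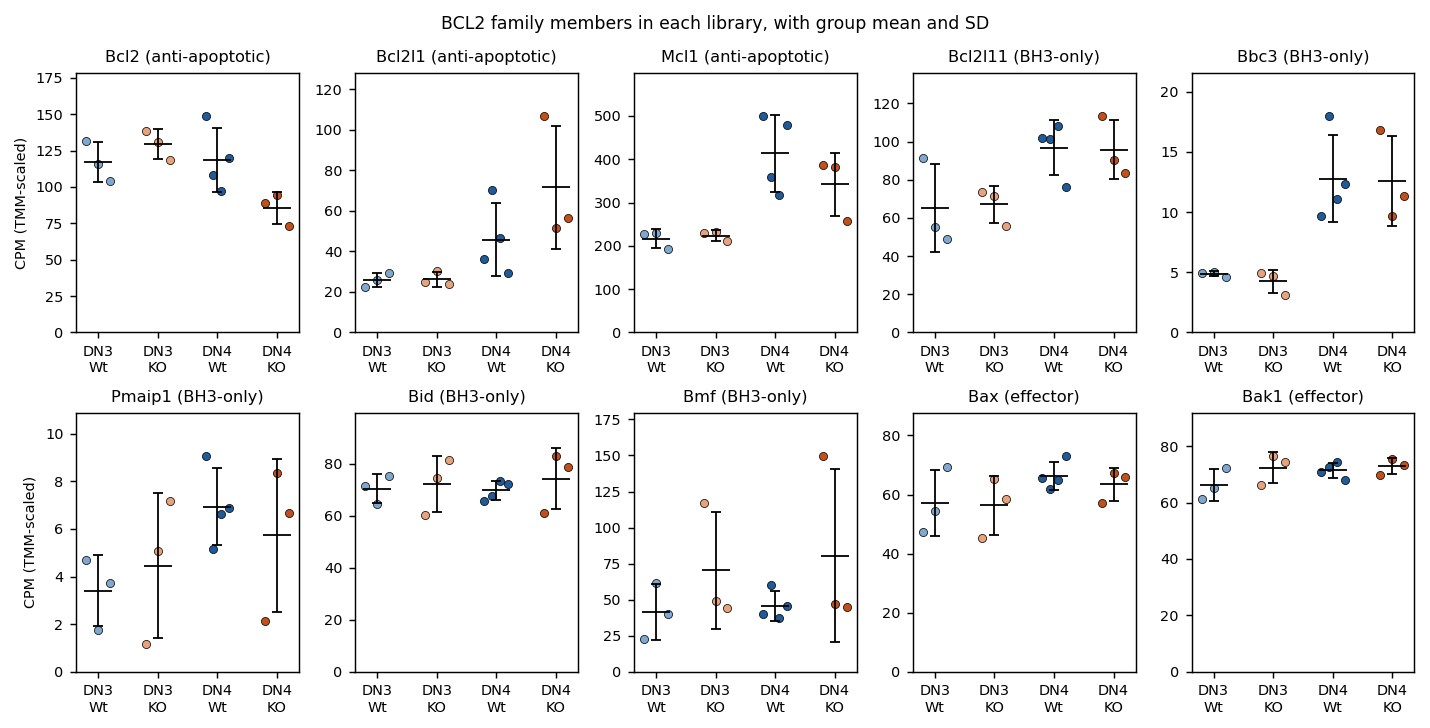
CPM of each member in each library (points), with the group mean and SD (bars), for DN3 and DN4 of Wt and KO-labelled (KO) mice. Mcl1 and Bbc3 lie higher in DN4 of both genotypes, Bcl2 lies lowest in KO-labelled DN4 at 72.9 to 94.2 CPM, and Bid, Bax and Bak1 span narrow ranges.

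Among the anti-apoptotic members, Mcl1 (chr3:95658788-95663176, plus strand, GRCm38) rose in both genotypes. In DN3 it stood at 228, 230 and 192 CPM in WT05, WT46 and WT48 and at 229, 232 and 210 CPM in KO45, KO49 and KO51. In DN4 it stood at 499, 360, 317 and 479 CPM in WT05, WT40, WT46 and WT48 and at 386, 382 and 258 CPM in KO45, KO49 and KO51. Each DN4 library thus lay above each DN3 library, and the lowest DN4 value came from KO51. The log2 fold change was 0.91 (SE 0.183, adjusted p = 0.00879, edgeR) in Wt and 0.59 (SE 0.165, adjusted p = 0.0426) in KO-labelled mice. The latter call was lost when any 1 of the KO-labelled DN3 libraries was left out, and also when KO45 or KO49 was left out of DN4, with edgeR's adjusted p between 0.0749 and 0.157. Within mice, Mcl1 was higher in DN4 in 6 of 6 animals, by 0.29 to 1.32 on the log2 scale.

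In DN4, Mcl1 ran partly alongside the B-cell marker sum. That sum was 2759, 1058, 1190 and 4910 CPM in WT05, WT40, WT46 and WT48 and 2065, 3138 and 881 CPM in KO45, KO49 and KO51. The libraries highest in Mcl1, WT05 and WT48, held the highest sums among the Wt libraries, and KO51 was lowest in both. Without the DN4 library of WT48 the log2 fold change of Mcl1 in Wt mice was 0.83 (adjusted p = 0.0184, edgeR), and without that of WT05 it was 0.81 (adjusted p = 0.0266). Over all alternatives its adjusted p ran from 2.43e-05 to 0.0443. The sum of gamma delta T markers was likewise highest in these DN4 libraries, at 1406 CPM in WT48 and 996 CPM in WT05 against 506 to 731 CPM in the other DN4 libraries, while DN3 libraries held 581 to 1001 CPM. The part of B cells and of gamma delta T cells in the Mcl1 difference was not tested.

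Bcl2l1 (chr2:152780668-152831728, minus strand), the gene of BCL-XL, was the anti-apoptotic member with the largest fitted change in KO-labelled mice. Its DN3 values were 24.7, 30.5 and 23.7 CPM in KO45, KO49 and KO51 and 22.5, 25.8 and 29.3 CPM in WT05, WT46 and WT48. Its DN4 values were 107, 51.6 and 56.5 CPM in KO45, KO49 and KO51 and 36.3, 70.5, 46.9 and 29.4 CPM in WT05, WT40, WT46 and WT48. DN3 and DN4 did not overlap in either genotype, although the DN4 library of WT48, at 29.4 CPM, lay next to its DN3 library at 29.3 CPM. The log2 fold change in KO-labelled mice was 1.42 (SE 0.272, adjusted p = 0.00977, edgeR). It was 1.34 (adjusted p = 0.0544) without the DN3 library of KO51 and 0.99 (adjusted p = 0.00815) without the DN4 library of KO45, and the adjusted p over all alternatives ran from 1.09e-05 to 0.0544. In Wt mice the value was 0.79 (SE 0.286, adjusted p = 0.0821), which passed without the DN4 library of WT48 at 0.95 (adjusted p = 0.0350, edgeR) and was 0.51 without that of WT40. With the mouse as a block, which leaves WT40 without a partner, it was 0.49 (adjusted p = 0.156).

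The spread of Bcl2l1 in DN4 ran alongside markers of later thymocytes. Summed over 8 genes, among them Cd2, Cd27, Cd28, Cd8a, Cd8b1, Cd4 and Trac, these markers held 4041 CPM in KO45 and 2747 CPM in WT40, the libraries highest in Bcl2l1, and 929 CPM in WT48, the lowest in Bcl2l1. The sums of the others were 1509 CPM in KO49, 1818 CPM in KO51, 1410 CPM in WT05 and 2024 CPM in WT46, and DN3 libraries held 325 to 456 CPM. The DN4 library of KO45 also kept the highest sum of DN3 markers among DN4 libraries, 1963 CPM against 465 to 1092 CPM. The part of the stage mixture in the Bcl2l1 difference was not tested.

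Bcl2 (chr1:106538178-106714274, minus strand) fell from DN3 to DN4 in KO-labelled mice. In DN3 it stood at 139, 131 and 118 CPM in KO45, KO49 and KO51 and at 131, 116 and 104 CPM in WT05, WT46 and WT48. In DN4 it stood at 89.3, 94.2 and 72.9 CPM in KO45, KO49 and KO51 and at 148, 108, 97.5 and 120 CPM in WT05, WT40, WT46 and WT48. DN4 of KO-labelled mice lay below each of the other 10 libraries, and the Wt stages overlapped. The log2 fold change from DN3 to DN4 was -0.62 (SE 0.132, adjusted p = 0.0148, edgeR) in KO-labelled mice, and the adjusted p was 0.0518 without the DN3 library of KO49 and ran from 6.25e-04 to 0.0518 over all alternatives. In Wt mice it was -0.01 (SE 0.159, 95% interval -0.37 to 0.36, adjusted p = 0.985), a value whose sign depended on the scaling and was 0.01 with DESeq2's size factors and 0.21 with library totals. In DN4, Bcl2 was highest within each genotype in libraries with high B-cell marker sums, WT05 and WT48 in Wt and KO49 in KO-labelled mice, and the part of B cells was not tested. Within mice, Bcl2 was lower in DN4 in 3 of 3 KO-labelled animals (by -0.70 to -0.47 on the log2 scale), while the Wt animals gave 0.18, -0.25 and 0.20. The fall in one genotype and not in the other is not by itself a difference between genotypes. The interaction of stage and genotype, which tests it, was -0.62 (SE 0.217, 95% interval -1.09 to -0.15) and did not pass (adjusted p = 1, edgeR, with 0 of 13361 genes or 0% called, 480 at an unadjusted p under 0.05 and 2 by DESeq2). Bcl2 was among those 480 genes.

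Across anti-apoptotic members the balance of transcripts differed between libraries. The ratio of Bcl2 to Bcl2l1 per kilobase of exon was 2.92, 2.25 and 1.78 in DN3 of WT05, WT46 and WT48 and 2.82, 2.15 and 2.50 in DN3 of KO45, KO49 and KO51. In DN4 it was 2.05, 0.767, 1.04 and 2.04 in WT05, WT40, WT46 and WT48 and 0.419, 0.914 and 0.647 in KO45, KO49 and KO51. Bcl2 thus outnumbered Bcl2l1 in 6 of 6 DN3 libraries and in 0 of 3 DN4 libraries of KO-labelled mice, by either gene length, whereas Wt DN4 was mixed, with 3 of 4 by exon length and 2 of 4 by the longest transcript. Of the summed level per kb of the anti-apoptotic trio, Mcl1 made up 76.0% to 78.7% in DN3 and 77.4% to 87.8% in DN4.

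**Figure D3:**
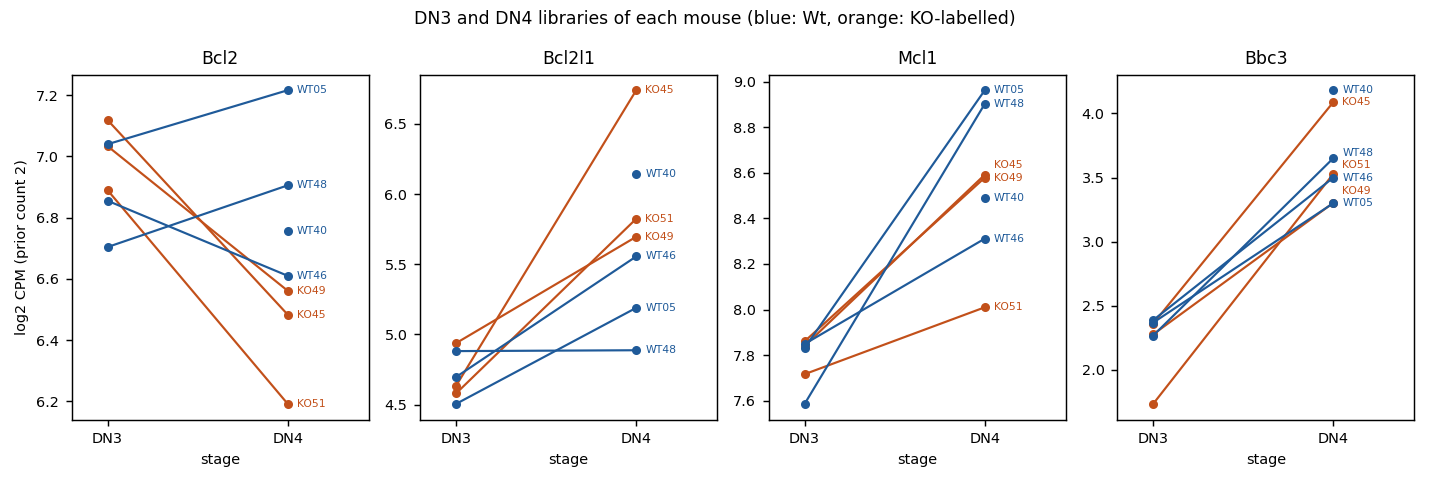
Log2 CPM (prior count 2) of Bcl2, Bcl2l1, Mcl1 and Bbc3 in DN3 and DN4, with a line for each mouse with both libraries (WT40 has DN4 only). Lines for Mcl1 and Bbc3 rise in 6 of 6 mice, and those for Bcl2 fall in 3 of 3 KO-labelled mice and go both ways in Wt mice.

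Bbc3 (chr7:16308393-16318205, plus strand), which encodes PUMA, a BH3-only protein that binds each anti-apoptotic member, showed the largest rise of the pro-apoptotic members. Its DN3 values were 4.97, 5.04 and 4.62 CPM in WT05, WT46 and WT48 and 4.95, 4.66 and 3.14 CPM in KO45, KO49 and KO51. Its DN4 values were 9.66, 18.0, 11.1 and 12.4 CPM in WT05, WT40, WT46 and WT48 and 16.8, 9.68 and 11.4 CPM in KO45, KO49 and KO51. Each DN4 library lay above each DN3 library, and WT40 and KO45 were highest, as they were for Bcl2l1 and for the markers of later thymocytes, whose part was not tested. The log2 fold change was 1.36 (SE 0.259, adjusted p = 0.00682, edgeR), a 2.57-fold rise, in Wt and 1.54 (SE 0.300, adjusted p = 0.0104), a 2.91-fold rise, in KO-labelled mice. Both calls held with each library left out, and over all alternatives the adjusted p ran from 8.08e-05 to 0.0339 and from 7.58e-05 to 0.0444. Bbc3 rested on 17 to 60 counts in DN3 and 114 to 235 in DN4, and 17 counts carry a counting error of 24.3%.

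**Figure D4:**
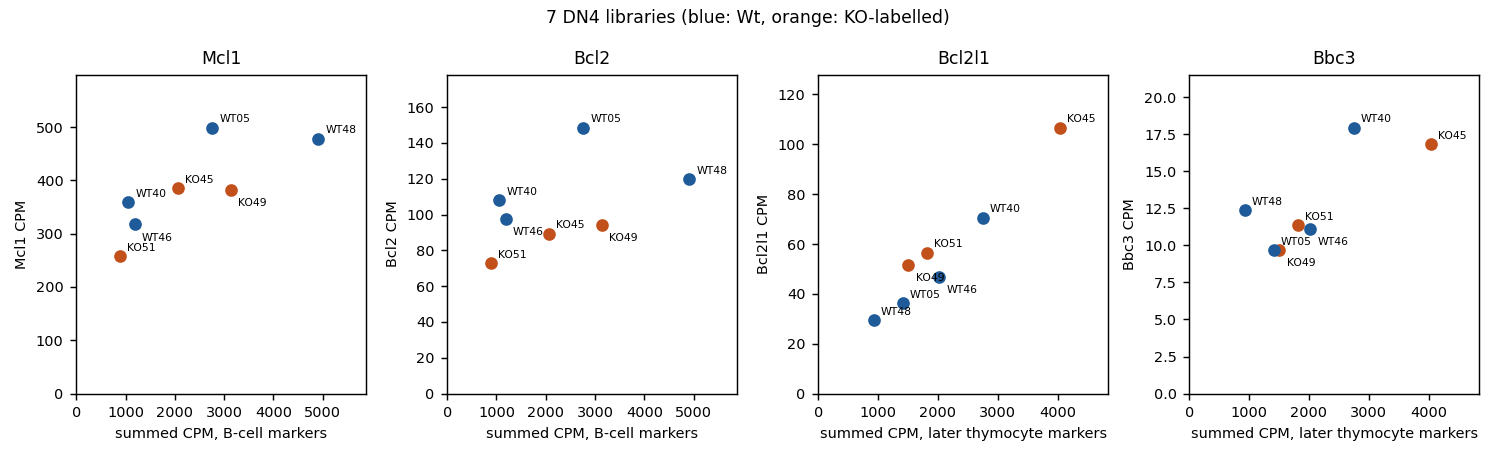
CPM of Mcl1 and Bcl2 against the summed CPM of 6 B-cell markers, and of Bcl2l1 and Bbc3 against that of 8 markers of later thymocytes, in the 7 DN4 libraries (named by mouse). KO51 is lowest in both Mcl1 and B-cell markers, and KO45 and WT40 are highest in Bcl2l1, Bbc3 and later thymocyte markers.

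Bcl2l11 encodes BIM, the BH3-only protein best known for deletion of self-reactive thymocytes. It stood at 91.6, 55.05 and 49.001 CPM in DN3 of WT05, WT46 and WT48 and at 73.6, 71.6 and 55.9 CPM in DN3 of KO45, KO49 and KO51. In DN4 it stood at 102, 101.5, 108 and 76.0 CPM in WT05, WT40, WT46 and WT48 and at 113, 90.4 and 83.7 CPM in KO45, KO49 and KO51. DN4 was higher in 6 of 6 mice, and the groups overlapped in Wt because of the DN3 library of WT05. The log2 fold change was 0.56 (SE 0.227, adjusted p = 0.115, edgeR) in Wt and 0.49 (SE 0.159, adjusted p = 0.0702) in KO-labelled mice. Without the DN3 library of WT05 the Wt value was 0.86 (adjusted p = 0.00973). The KO-labelled value passed with the mouse as a block, at 0.49 (adjusted p = 0.00297), a fit that called 4499 genes in place of 2338. Its adjusted p over all alternatives ran from 0.00973 to 0.300 in Wt and from 0.00297 to 0.240 in KO-labelled mice.

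Pmaip1, the gene of NOXA, which binds MCL1, was the scarcest member by mean CPM per kb of exon in each group, with 14 to 121 counts a library. By mean CPM it lay above Bbc3 in DN3 of KO-labelled mice, at 4.46 against 4.25. It stood at 4.68, 1.77 and 3.74 CPM in DN3 and at 9.08, 5.17, 6.63 and 6.90 CPM in DN4 of Wt mice, in the order used above. The Wt groups did not overlap, and the log2 fold change of 1.07 (SE 0.373) did not pass (adjusted p = 0.0745, edgeR). It passed without the DN3 library of WT05 (1.31, adjusted p = 0.0407) and with DESeq2 (1.09, adjusted p = 0.0287). In KO-labelled mice the values were 1.155, 5.06 and 7.16 CPM in DN3 and 2.15, 8.37 and 6.67 CPM in DN4, with KO45 far below the others at both stages, and the log2 fold change was 0.37 (SE 0.668, adjusted p = 0.742).

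Bmf, a BH3-only gene linked to loss of attachment and of cytokines, set the mouse KO45 apart. It stood at 117, 49.2 and 44.3 CPM in DN3 and at 150, 46.9 and 45.02 CPM in DN4 of KO45, KO49 and KO51, and at 22.8 to 61.4 CPM in the Wt libraries. KO45 was thus the highest library at each stage, and the same animal had the lowest Pmaip1 at each stage. The change from DN3 to DN4 was 0.09 (SE 0.305, 95% interval -0.60 to 0.79) on the log2 scale in Wt and 0.15 (SE 0.540, 95% interval -1.09 to 1.40) in KO-labelled mice, and neither passed (adjusted p = 0.863 and 0.871, edgeR).

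Bid, which links death receptors to the mitochondrion, stayed between 60.5 and 83.2 CPM in the 13 libraries. Its log2 fold changes between the stages were -0.04 (95% interval -0.28 to 0.20) in Wt and 0.02 (95% interval -0.34 to 0.38) in KO-labelled mice. Bid shares 16.4% of its exonic 50-base words with Bcl2l13 on the other strand, and the strand setting of the counting is not given in the sources used here, so reads of the pair may not be told apart. Both effectors also had narrow ranges. Bax lay between 45.4 and 73.1 CPM, with log2 fold changes of 0.19 (95% interval -0.14 to 0.52) in Wt and 0.16 (95% interval -0.18 to 0.49) in KO-labelled mice, and was higher in DN4 in 6 of 6 mice, by 0.046 to 0.464 on the log2 scale. Bak1 lay between 61.2 and 76.6 CPM, with 0.08 (95% interval -0.15 to 0.31) and -0.01 (95% interval -0.25 to 0.22), and shares 17.1% of its 50-base words with Ggnbp1, which held 21 to 105 counts. None of these 6 values passed, with adjusted p from 0.398 to 0.943 by edgeR.

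**Figure D5:**
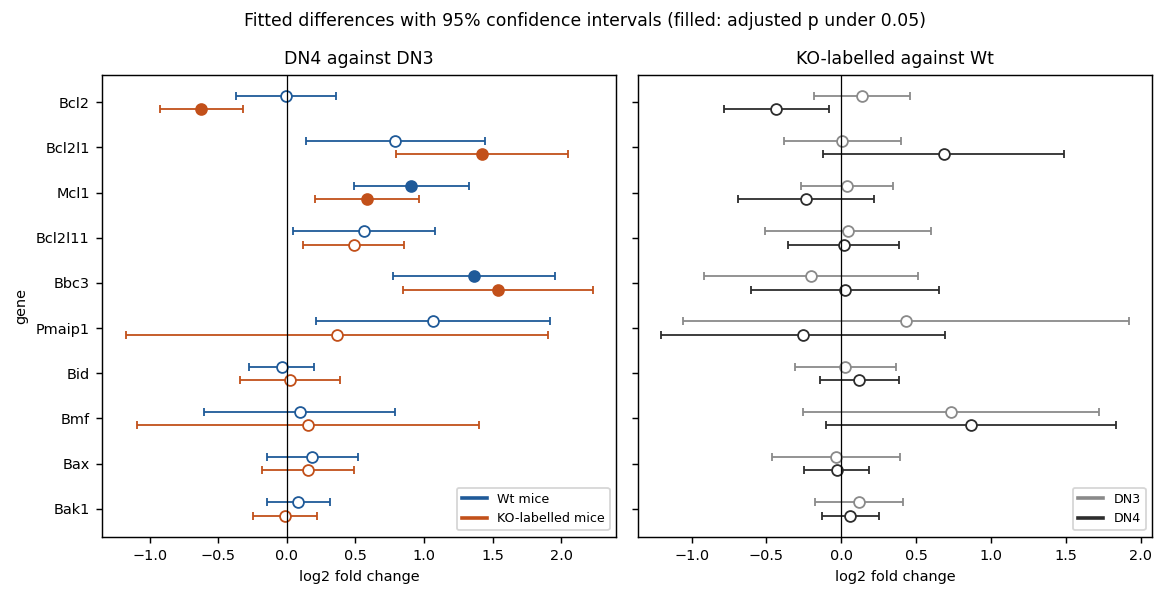
Log2 fold changes of the 10 members with 95% confidence intervals, for DN4 against DN3 (left) and KO-labelled against Wt (right). Filled points passed an adjusted p of 0.05 by edgeR: 2 in Wt and 4 in KO-labelled mice between the stages, and 0 between the genotypes.

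Between the genotypes no member passed. In DN3, 0 of 10 members and 0 of 12105 genes (0%) were called by edgeR, with 168 genes at an unadjusted p under 0.05, none of them a member, and 3 genes by DESeq2. The log2 fold changes of 9 members lay between -0.20 and 0.43, and Bmf, at 0.73 (SE 0.432, 95% interval -0.25 to 1.72), was 0.14 without the DN3 library of KO45. CPM of each of the 10 members overlapped between the genotypes in DN3, where 6.44% of all genes did not.

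In DN4, 0 of 10 members were called, against 7 of 13084 genes (0.0535%), each of them lower in KO-labelled cells, and DESeq2 called 51. By edgeR 715 genes (5.46%) had an unadjusted p under 0.05, with 1 member among them, Bcl2. Bcl2 was the member whose genotypes did not overlap, with 72.9 to 94.2 CPM in KO-labelled and 97.5 to 148 CPM in Wt cells, while 7.08% of all genes tested did not overlap. Its log2 fold change was -0.43 (SE 0.153, 95% interval -0.79 to -0.08), which did not pass (adjusted p = 0.883, edgeR), and it was -0.32 without the DN4 library of KO51 and likewise without that of WT05. Bcl2l1 gave 0.68 (SE 0.352, 95% interval -0.12 to 1.49) and was 0.26 without the DN4 library of KO45. Bmf gave 0.87 (SE 0.424, 95% interval -0.10 to 1.84) and was 0.03 without that library. The other 7 members lay between -0.26 and 0.12. Of 5 NK and innate lymphoid markers 0 passed in this comparison, 3 with values below and 2 with values above 0, and their sum was 45.5 to 63.3 CPM in KO-labelled against 79.8 to 100.8 CPM in Wt DN4. Of 4 gamma delta T markers 0 passed, 4 with values below 0, and their sums overlapped, at 506 to 731 CPM against 664 to 1406 CPM, as did B-cell marker sums, at 881 to 3138 CPM against 1058 to 4910 CPM. Of 7 DN3 markers tested 0 passed, with 5 values above and 2 below 0. The sums of DN3 markers overlapped, at 779 to 1963 CPM in KO-labelled against 465 to 1092 CPM in Wt DN4. Of 5 proliferation markers 0 passed, and 5 had values above 0. The part of these marker lists in the Bcl2 values was not tested. In the interaction of stage and genotype, log2 values of the members ran from -0.72 (Pmaip1) to 0.64 (Bcl2l1), and 0 of 10 passed.

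Other genes of the pathway were counted in lists, to be read against the 22.9% of all genes called between the stages in Wt and the 18.6% in KO-labelled mice. Of the other anti-apoptotic family genes, 2 of 5 could be tested in Wt, and Bcl2l2, which encodes BCL-W, fell by 0.77 on the log2 scale between DN3 and DN4 (SE 0.158, adjusted p = 0.00967, edgeR) and by 0.86 (SE 0.190, adjusted p = 0.0169) in KO-labelled mice. The other, Bcl2a1b, is one of a set of near-identical A1 genes among which reads cannot be assigned with certainty, and it passed the filter only through DN4, where it was high, so its difference is not given. Of 10 other pro-apoptotic or less characterised family genes, 6 were tested, and Bcl2l14 was the 1 that passed, with log2 values of -2.24 (SE 0.246, adjusted p = 5.69e-04, edgeR) in Wt and -2.41 (SE 0.233, adjusted p = 6.77e-04) in KO-labelled mice.

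Downstream of the mitochondrion, 1 of 7 apoptosome and caspase genes passed in Wt, Casp9, the initiator caspase of the apoptosome, at 0.80 (SE 0.176, adjusted p = 0.0130, edgeR), and 0 of 7 passed in KO-labelled mice, where Casp9 gave 0.57 (SE 0.189, adjusted p = 0.0722) and its interaction of stage and genotype was -0.23 (SE 0.255, adjusted p = 1). Of 9 genes of mitochondrial release and inhibitors of apoptosis, Birc3, which encodes the ubiquitin ligase cIAP2, was the 1 that passed, at 2.02 (SE 0.411, adjusted p = 0.00920) in Wt and 1.83 (SE 0.353, adjusted p = 0.0102) in KO-labelled mice. Of 8 tested genes of the death receptor pathway, the receptor gene Fas was the 1 that passed, at 2.79 (SE 0.375, adjusted p = 0.00149) and 2.55 (SE 0.467, adjusted p = 0.00813). None of the 3 outer membrane channel genes Vdac1, Vdac2 and Vdac3 passed in either genotype. The medians of these 4 lists in Wt, -0.08, -0.25, 0.28 and -0.10, stood beside -0.03 over all genes. In the genotype comparisons and the interaction, 0 genes of any of these lists passed.

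Of 15 genes that act upstream of the family, 14 were tested, 3 rose and 4 fell in Wt mice, and 4 rose and 2 fell in KO-labelled mice, beside the same 22.9% and 18.6% of all genes. Foxo1, of the FOXO factors known to activate Bcl2l11 and Bbc3 upon growth factor withdrawal, rose by 2.43 (SE 0.252, adjusted p = 4.17e-04, edgeR) in Wt and by 2.15 (SE 0.188, adjusted p = 5.46e-04) in KO-labelled mice. Foxo3, another FOXO gene of the list, did not pass, at -0.20 (adjusted p = 0.532, edgeR) in Wt and -0.11 (adjusted p = 0.516) in KO-labelled mice. Egr1, an immediate early gene of receptor signals, rose by 2.40 (SE 0.156, adjusted p = 7e-05) and by 2.35 (SE 0.211, adjusted p = 5.46e-04). The 4 that fell in Wt were Il7r, Stat5a, Myb and Bcl11b, with log2 values from -1.09 to -0.75, named after their values were seen. Il7r encodes the interleukin-7 receptor chain and gave -0.79 (SE 0.119, adjusted p = 0.00243, edgeR) in Wt and -1.43 (SE 0.230, adjusted p = 0.00502) in KO-labelled mice. The list's median between the stages was -0.21 in Wt and 0.01 among KO-labelled libraries, while 0 of its genes passed between the genotypes or in the interaction.

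In pattern over the 13 libraries, Mcl1 was most like Ifnar1 (Pearson r of log2 CPM 0.983) and Bbc3 was most like Asb2 (Pearson r 0.972), among 11497 protein-coding genes searched. They are the 2 members called in the same direction in both genotypes. The libraries share mice and stages, so these values describe likeness only.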

How the data were processed

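RNA was sequenced from sorted DN3 and DN4 thymocytes with the TruSeq stranded mRNA kit on a HiSeq instrument. The authors trimmed reads with Cutadapt, mapped them with STAR to mm10 and counted them with featureCounts, with deepTools and DESeq2 also named in the submitters' processing notes, and deposited raw read counts per gene, 47937 genes in 13 libraries. Tool versions, the annotation release and the strand setting are not given in the sources used here. Groups came from the labels. Symbols and coordinates came from GENCODE M21 on GRCm38, where 47224 identifiers were found without version.

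The 10 members and the lists of pathway genes and of stage, proliferation, B-cell, NK, gamma delta T, plasmacytoid dendritic, myeloid and stromal markers were chosen with earlier results of these data known. Fits used the libraries of the groups compared and the quasi-likelihood test of edgeR 4.0.16 (R 4.3.3, limma 3.58.1) after filterByExpr (minimum count 10) and TMM scaling, over all genes, with Benjamini-Hochberg adjustment and a threshold of 0.05. SE is the log2 fold change divided by the square root of F, and intervals are 95% by the test's degrees of freedom. Named beyond the members were up to 3 genes of each list with the largest change among those called in Wt, and the protein-coding gene most alike in log2 CPM (prior count 2) to each member called the same way in both genotypes. The values of 1 gene that this rule names are not reported here. Il7r, Stat5a, Myb, Bcl11b, Foxo3, the Vdac genes, marker genes and genes that overlap a member were named outside this rule, after their values were seen. Fits between the stages and between the DN4 genotypes were run on simulated data with changes larger than those of the called members. The outcome is not given here, so no value above rests on it. Alternatives were DESeq2 1.42.0, other scalings, filters, thresholds and lengths, each library left out, all libraries in one fit, and the mouse as a block. Same-numbered libraries come from the same mouse, and over 13361 genes their deviations from group means correlated by 0.460, 0.213, 0.331, 0.145, 0.124 and 0.182 in KO45, KO49, KO51, WT05, WT46 and WT48. Libraries of a group were no duplicates (chi-squared per degree of freedom of at least 6.19). In DN3 this value was 445 and 383 for WT05 against WT46 and WT48, and 7.01 for WT46 against WT48. Depth was 5926848 to 14148661 counts a library. Fits without the block took no account of stages paired within mice, and their p-values measure the spread between mice within a group.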

Additional observations from a re-analysis of the deposited data

Results flagged for a closer look

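Among 23 values checked for a library far from the rest in the 4 Wt DN4 libraries, 1 stood out, and chance alone flags about 1 in 20. It was the summed level of plasmacytoid dendritic markers, at 656, 682, 685 and 907 CPM in WT46, WT40, WT05 and WT48, where the gap to WT48 took 0.884 of the range. The same library was the lowest of the group in Bcl2l1 (29.4 CPM) and Bcl2l11 (76.0 CPM). No level of a member stood apart in this way. Groups of 3, KO45 among them, were too small for the check.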

How the results depend on the processing

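No value of a member that passed the test turned its direction under any alternative. Of 860 member results under alternatives, 767 kept their direction and side of the threshold, 12 came to pass, 10 no longer passed and 71 changed sign, each of the latter a value that passed under neither setting. Wt mice gave 2903 genes between the stages, which became 1779 (1384 higher and 395 lower, against 1706 and 1197) with library totals and 1724 with a log2 fold change of at least 1. Members called there were 4 with DESeq2 and at an adjusted p of 0.1 (Bcl2l1, Mcl1, Bbc3 and Pmaip1) and 1 with the fold limit (Bbc3). KO-labelled mice gave 2338 genes, which became 1385 with the fold limit, leaving 2 members (Bcl2l1 and Bbc3), and 4499 with the mouse as a replicate block. With the block Bcl2l11 also passed in KO-labelled mice (5 members), and it changed no other call of a member. Bcl2l11 passed there without a filter (adjusted p = 0.0351, edgeR) and with DESeq2 (adjusted p = 0.0372), and in Wt with library totals (0.84, adjusted p = 0.0217, edgeR). Between genotypes, DN3 gave 1 gene without a filter and 3 with DESeq2, DN4 gave 11 and 51, and the interaction gave 2 with DESeq2. Library totals, which take in the rRNA-like counts of the DN3 library of WT05, moved the median of all genes by 0.19 between the Wt stages, 0.24 between the DN3 genotypes and -0.18 in the interaction (log2).

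Leaving out 1 library gave 1845 to 3393 genes and 2 to 4 members in Wt, with 1845, 1877 and 1918 genes without DN4 WT05, DN3 WT46 and DN3 WT48. It gave 1407 to 2790 genes and 2 to 4 members in KO-labelled mice, with 1407, 1458 and 1522 genes without DN3 KO49, DN3 KO51 and DN4 KO49. Between genotypes it gave 0 to 1 genes in DN3 (1 without WT46) and 0 to 8 in DN4, with 2 without KO45 and 0 without KO49, KO51, WT05, WT40 or WT46. The causes were not tested.

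Values that changed sign under settings other than a left-out library were as follows. Bcl2 between the Wt stages was 0.0058 with DESeq2's size factors, 0.21 with library totals, 0.023 without a filter, 0.011 with at least 10 counts in every library, 0.0068 with DESeq2, 0.019 with the block and 0.020 with all 13 libraries. Library totals gave Bid 0.15 between the Wt stages, Bbc3 0.033 and Bax 0.17 between the DN3 genotypes, and Bid -0.14 and Bmf -0.016 in the interaction. Without a filter, Bcl2l11 and Bbc3 between the DN4 genotypes were -0.0024 and -0.00047. With all 13 libraries they were -0.017 and -0.015, and Bak1 between the KO-labelled stages was 0.0092.

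Leaving out 1 library gave ranges across 0 as follows. Between the Wt stages they were -0.13 to 0.077 for Bcl2, -0.10 to 0.012 for Bid and -0.19 to 0.49 for Bmf. Between the KO-labelled stages they were -0.11 to 0.88 for Pmaip1, -0.082 to 0.11 for Bid, -0.67 to 0.77 for Bmf and -0.060 to 0.0090 for Bak1. Between the DN3 genotypes they were -0.12 to 0.36 for Bcl2l11, -0.15 to 0.13 for Bax, -0.11 to 0.11 for Bcl2l1, -0.12 to 0.90 for Pmaip1, -0.065 to 0.14 for Bid and -0.038 to 0.086 for Mcl1. Between the DN4 genotypes they were -0.14 to 0.12 for Bcl2l11, -0.26 to 0.23 for Bbc3, -0.62 to 0.14 for Pmaip1 and -0.065 to 0.030 for Bax. In the interaction they were -0.37 to 0.10 for Bcl2l11, -0.059 to 0.18 for Bid, -0.73 to 0.67 for Bmf, -0.20 to 0.10 for Bax and -0.082 to 0.39 for Bbc3.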

Other observations

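Pearson r of log2 CPM across the 13 libraries was 0.847 between Bcl2l1 and Bbc3, 0.789 between Mcl1 and Bbc3, and -0.672 between Bcl2 and Bcl2l1. Pairs of an anti-apoptotic and a pro-apoptotic member gave values of both signs. Mcl1 and Bcl2l1 gave 0.686 and 0.674 with Bcl2l11 and -0.188 and -0.133 with Bid, and Bcl2 gave negative values with each pro-apoptotic member, from -0.474 with Bbc3 to -0.125 with Pmaip1. Among members without a called stage difference, Pmaip1 gave 0.723 with Bid, 0.682 with Bax and -0.688 with Bmf. These are descriptions over libraries that share mice, stages and depth, not tests.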
